A study of Mus musculus with 4 samples.

Results

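Expression of the Bcl2 family and of Xiap, the genes that decide whether a cell enters mitochondrial apoptosis and whether its caspases can act, was examined in satellite cells with and without HDAC4. Satellite cells are the stem cells of skeletal muscle, and HDAC4 is a class IIa histone deacetylase. The 10 genes were chosen by name: Bcl2, Bcl2l1, Mcl1, Bax, Bak1, Bok, Bad, Bid, Bcl2l11 and Xiap. All 10 were found among the 43437 genes listed for every library, and 9 of them, whose mean over the libraries reached 1 FPKM, were among the 12118 genes that entered the test.

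Both groups were HDAC4fl/fl Pax7CE/+ Cre mice on the C57BL/6 strain, 4 weeks old. The Cre sits in the Pax7 gene, so controls and HDAC4 KO animals alike had 1 working Pax7 allele, and recombination was aimed at Pax7-expressing cells. Controls received vehicle and HDAC4 KO mice received tamoxifen, so that deletion of Hdac4 and exposure to the drug cannot be told apart. None of the libraries in the series came from tamoxifen-treated mice without Cre. Cells were sorted from muscle, kept for 24 h in growth medium, and sequenced as polyadenylated RNA, with 2 libraries per group numbered 3 and 4. Whether each library had its own animals is not given in the sources used here, and the p-values describe the spread of these samples, which may be technical. In such bulk RNA, fewer cells that express a gene and less RNA per cell cannot be told apart.

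The Bcl2 family works at the outer mitochondrial membrane. Guardians such as Bcl2, Bcl-xL (Bcl2l1) and Mcl1 bind and hold back the pore formers Bax and Bak1, while the BH3-only proteins Bad, Bid and Bim (Bcl2l11) report stress by placing a short helix, the BH3 segment, in the groove of a guardian or a pore former. Once the membrane is open, cytochrome c leaves the mitochondrion and caspases are activated. Xiap acts later, by binding and blocking the caspases themselves. Activated satellite cells must survive a rapid expansion, which makes this balance relevant to muscle repair.

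The helix that these proteins use to recognise each other is the feature that joins 9 of the 10 members, and it is shown for that reason. Each line gives 36 coding bases, 5′ to 3′, read from GENCODE M21 transcripts on GRCm38, with the 6 codons of the BH3 core in capitals.
Bcl2: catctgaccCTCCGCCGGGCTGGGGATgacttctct
Bcl2l1: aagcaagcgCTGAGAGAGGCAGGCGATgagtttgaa
Mcl1: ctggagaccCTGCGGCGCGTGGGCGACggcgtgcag
Bax: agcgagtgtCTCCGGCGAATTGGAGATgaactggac
Bak1: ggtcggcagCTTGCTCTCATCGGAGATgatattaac
Bok: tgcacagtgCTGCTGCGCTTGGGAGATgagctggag
Bad: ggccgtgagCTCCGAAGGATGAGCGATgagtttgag
Bid: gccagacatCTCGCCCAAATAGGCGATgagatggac
Bcl2l11: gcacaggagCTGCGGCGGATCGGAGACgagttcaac
The core was searched in the translated coding sequence as leucine, any 2 residues, an aliphatic residue or methionine, glycine or serine, and aspartate. It occurred 1 time in each of the 9 family members and not in Xiap. The same pattern was present in 2012 of 21587 protein-coding genes (9.32%), so a match describes these letters and is no sign of function on its own.

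The values are FPKM, fragments scaled by transcript length and by library size, with the Cufflinks confidence bounds of each library, and read depth cannot be derived from them. In the deposited tables most values of 1 or more had lost their decimal point. The points were put back from the digits and the bounds, which settles the ratios between libraries. A power of 10 common to all 4 libraries was fixed for Bcl2, Bax and Bcl2l11, and the bounds left a single level for Mcl1. For the other members the level printed is the lowest that the width of the bounds allows, and the true level may be higher by a power of 10. Bak1 had 3 allowed levels in steps of 10, and each of the others had 2. Log2 differences were tested by limma on the scale log2(FPKM + 1), with control subtracted from HDAC4 KO, and an unsettled level changes them only through the added 1.

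Hdac4, the targeted gene, had lowest allowed levels of 5.04 and 5.85 FPKM in controls 3 and 4, against 1.58 and 2.36 FPKM in HDAC4 KO 3 and 4. Both HDAC4 KO libraries lay below both controls. The difference was -1.13 ± 0.18 (SE) on the log2 scale, with a limma adjusted p of 0.193 over all genes and 0.0434 among protein-coding genes alone. The cells expressed Pax7, at 18.4 and 21.4 FPKM in controls and 17.1 FPKM in both HDAC4 KO libraries, and Myod1, at 633 and 833 FPKM in controls and 563 and 530 FPKM in HDAC4 KO. Both genes and Myf5 were lower in both HDAC4 KO libraries, and Des and Sdc4 were higher in both, none with an adjusted p under 0.05 (limma). Markers of other cell types moved between libraries and groups, and their sums are given over the markers with a settled level. The sum of 5 myofibre markers was 1567 FPKM in control 3 and 105 to 209 FPKM elsewhere, with Myh4 at 0 in control 4 and HDAC4 KO 3. The sum of 6 blood markers was 24.1 FPKM in control 3, most of it from Hbb-bs, and 3.46 to 4.94 FPKM elsewhere, while Ptprc, the CD45 gene, did not exceed 0.0275 FPKM. Of the other blood markers, Cd68 and Lyz2 were higher in both HDAC4 KO libraries and Cd3e was lower in both. Glial markers (5) summed to 4.94 and 2.78 FPKM in controls against 11.7 and 8.97 FPKM in HDAC4 KO, and smooth muscle and pericyte markers (5) to 49.4 and 34.5 FPKM against 95.6 and 116 FPKM. Most of the smooth muscle and pericyte sum came from Acta2 and Tagln, and the groups overlapped for Myh11 and Rgs5. Pdgfrb, and Cspg4 outside this sum, were higher in both HDAC4 KO libraries. Fibro-adipogenic markers (4) summed to 4.70 FPKM in control 4 and 13.2 to 13.6 FPKM elsewhere. Col1a1 and Ly6a, whose levels are unsettled, were outside this sum and were highest in control 3. Lowest allowed levels of Col1a1 were 39.5 FPKM in control 3 and 3.14 to 14.7 FPKM elsewhere. Endothelial markers (5) summed to 2.17 FPKM in control 4 and 3.42 to 5.87 FPKM elsewhere, with Cldn5 at 0 in control 4. Cdh5, outside this sum, had lowest allowed levels of 4.76 and 3.08 FPKM in controls against 8.04 and 6.74 FPKM in HDAC4 KO. Tek was also higher in both HDAC4 KO libraries, and the groups overlapped for the remaining endothelial markers. The part of these cells in the members' values was not tested.

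No member of the Bcl2 family, nor Xiap, passed the test. The adjusted p of the 9 tested members ran from 0.383 for Bid to 0.993 for Mcl1 (limma, over all 12118 genes), and none of the 9 had an unadjusted p under 0.05, against 14.4% of all genes tested. Across all genes the same threshold on adjusted p called 0, which is 0% of those tested. The differences of 7 of the 9 members were above 0, and their median was 0.20 on the log2 scale, where 57.4% of all tested genes were above 0 with a median of 0.04. Both HDAC4 KO libraries lay above both controls for 3 of the 9 (Bcl2l1, Bid and Bcl2l11), a state shared by 30.9% of all genes tested. They lay below both controls for 1 of the 9 (Xiap), a state shared by 17.7% of genes, and also for Bcl2, which was under the filter.

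**Figure D1:**
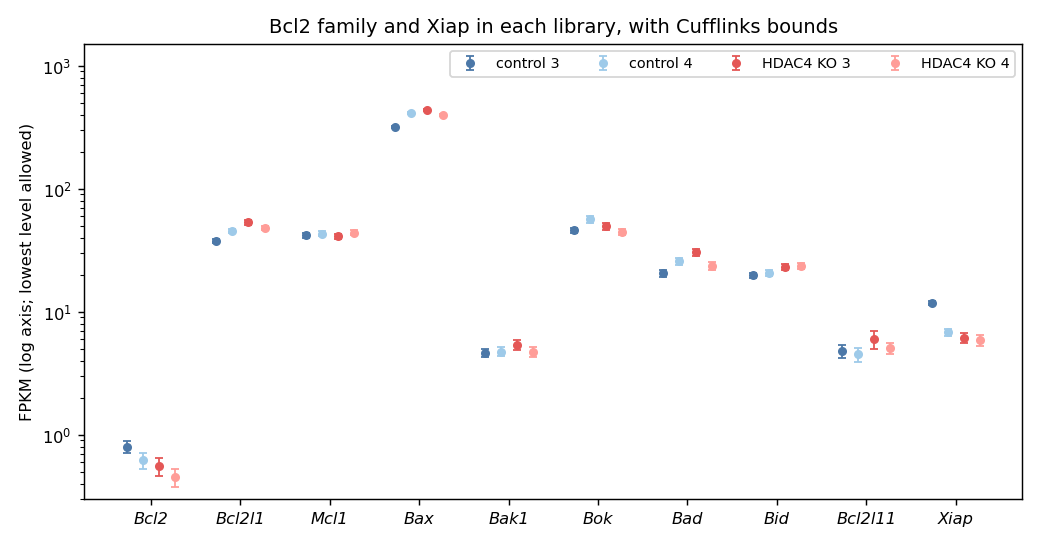
FPKM of the 10 genes in each library on a log axis, with points for the 4 libraries and bars for the Cufflinks confidence bounds. At the lowest levels allowed, Bax stands highest, at 316 to 434 FPKM, Bcl2 lowest, at 0.453 to 0.794 FPKM, and the Xiap point of control 3 (11.8 FPKM) lies apart from the other 3 libraries (5.84 to 6.79 FPKM).

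Among members whose level was settled, Bax was highest, then Mcl1, Bcl2l11 and Bcl2. These steps exceeded the spread between libraries, since the lowest Bax value (316 FPKM) was above the highest Mcl1 value (44.0 FPKM), the lowest Mcl1 value (40.9 FPKM) above the highest Bcl2l11 value (5.97 FPKM), and the lowest Bcl2l11 value (4.50 FPKM) above the highest Bcl2 value (0.794 FPKM). At their lowest allowed levels, the range of Bcl2l1 overlapped those of Mcl1 and Bok, as did those of Bad and Bid, and Bak1 and Bcl2l11, but the order of the unsettled members is not known.

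The guardians had no common direction, and none passed the test. Bcl2 (ENSMUSG00000057329, chr1:106538178-106714274, minus strand) is the founding survival protein of the family. It was at 0.794 and 0.621 FPKM in controls 3 and 4, against 0.554 and 0.453 FPKM in HDAC4 KO 3 and 4. Both HDAC4 KO libraries were below both controls, while the Cufflinks bounds of control 4 (0.530 to 0.712 FPKM) and HDAC4 KO 3 (0.463 to 0.645 FPKM) overlapped. Mean levels were 0.708 ± 0.123 in controls and 0.504 ± 0.071 in HDAC4 KO (SD, n = 2), a ratio of 0.712. When every gene was tested without a filter on low values, the limma difference was -0.18 ± 0.10 (SE) with an adjusted p of 0.614. Its BH3 core was read at chr1:106712575-106712610. The exons of Bcl2 overlap those of an antisense gene, D630008O14Rik. The library kit marks strand, and no source used here says whether counting used it.

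Bcl2l1 (ENSMUSG00000007659, chr2:152780668-152831728, minus strand) encodes Bcl-xL, the guardian that binds both Bax and Bak1. Its lowest allowed levels were 37.4 and 45.3 FPKM in controls 3 and 4, against 53.2 and 48.0 FPKM in HDAC4 KO 3 and 4. The groups did not overlap, but the gap between control 4 and HDAC4 KO 4 was smaller than that between the controls. The difference was 0.29 ± 0.13 (SE) on the log2 scale, with a 95% interval of -0.05 to 0.64 and a limma adjusted p of 0.401. Without control 3 it was 0.16, and without control 4 it was 0.43. The BH3 core lies at chr2:152829697-152829732.

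Mcl1 (ENSMUSG00000038612, chr3:95658788-95663176, plus strand) encodes a guardian with a fast turnover, on which many dividing cells rely. Its levels were 41.6 and 43.1 FPKM in controls 3 and 4, against 40.9 and 44.0 FPKM in HDAC4 KO 3 and 4. The libraries of both groups were interleaved. The difference was 0.00 ± 0.09 (SE) on the log2 scale, with a 95% interval of -0.23 to 0.24 and a limma adjusted p of 0.993, and its sign turned under other scalings (-0.08 with median-ratio scaling). Its BH3 core was read at chr3:95659427-95659462.

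Of the pore formers, Bax (ENSMUSG00000003873, chr7:45461697-45466898, minus strand) encodes the protein that moves from the cytosol to mitochondria and is a known p53 target. Bax was at 316 and 411 FPKM in controls 3 and 4, against 434 and 400 FPKM in HDAC4 KO 3 and 4. Control 3 was the low library, and control 4 lay between both HDAC4 KO libraries. Mean levels were 364 ± 67.3 FPKM in controls and 417 ± 24.4 FPKM in HDAC4 KO (SD, n = 2). The difference was 0.21 ± 0.16 (SE) on the log2 scale, with a 95% interval of -0.21 to 0.63 and a limma adjusted p of 0.571. It rested on control 3, since it was 0.02 without that library and 0.40 without control 4. The BH3 core lies at chr7:45465997-45466032, and Bax exons overlap those of Gm45808, annotated as protein coding on the same strand, so reads of both genes may be shared.

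Bak1 (ENSMUSG00000057789, chr17:27019810-27029009, minus strand) is the pore former that resides in the mitochondrial membrane. Its lowest allowed levels were 4.61 and 4.73 FPKM in controls 3 and 4, against 5.40 and 4.72 FPKM in HDAC4 KO 3 and 4. HDAC4 KO 4 matched the controls, so that HDAC4 KO 3 alone stood higher. The difference was 0.09 ± 0.11 (SE) on the log2 scale, with a 95% interval of -0.21 to 0.40 and a limma adjusted p of 0.725, and it was 0.01 without HDAC4 KO 3. Its BH3 core was read at chr17:27022531-27022566. Bak1 exons overlap those of Ggnbp1 on the opposite strand.

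Bok (ENSMUSG00000026278, chr1:93685660-93695764, plus strand) encodes a pore former controlled largely through the stability of its protein. Its lowest allowed levels were 45.8 and 56.2 FPKM in controls 3 and 4, against 49.3 and 44.5 FPKM in HDAC4 KO 3 and 4. The groups overlapped, with control 4 as the high library. The difference was -0.11 ± 0.13 (SE) on the log2 scale, with a 95% interval of -0.47 to 0.25 and a limma adjusted p of 0.724, and it turned to 0.03 without control 4. The printed bases of Bok come from 2 exons, between chr1:93686648 and chr1:93689170.

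The 3 BH3-only members all had differences close to 0.20, as did the pore former Bax, so this value was not particular to them. Bad (ENSMUSG00000024959, chr19:6941861-6951899, plus strand) encodes a protein that survival kinases keep inactive by phosphorylation. Its lowest allowed levels were 20.6 and 25.6 FPKM in controls 3 and 4, against 30.4 and 23.7 FPKM in HDAC4 KO 3 and 4. The groups overlapped, and the libraries of each group differed by more than their Cufflinks bounds. The difference was 0.22 ± 0.17 (SE) on the log2 scale, with a 95% interval of -0.25 to 0.68 and a limma adjusted p of 0.592, and it was 0.07 without control 3 and 0.04 without HDAC4 KO 3. Its BH3 core lies at chr19:6950783-6950818, and its exons overlap those of Gpr137 on the opposite strand.

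Bid (ENSMUSG00000004446, chr6:120891930-120916853, minus strand) encodes the protein that caspase-8 cuts to carry a death receptor signal to mitochondria. Its lowest allowed levels were 19.7 and 20.6 FPKM in controls 3 and 4, against 23.1 and 23.5 FPKM in HDAC4 KO 3 and 4. The groups were apart and the libraries within each were close, but the Cufflinks bounds of control 4 (19.5 to 21.7 FPKM) and HDAC4 KO 3 (21.7 to 24.6 FPKM) overlapped. The difference was 0.20 ± 0.08 (SE) on the log2 scale, with a 95% interval of -0.02 to 0.43, an unadjusted limma p of 0.069 and an adjusted p of 0.383. It stayed between 0.17 and 0.23 with any 1 library left out, and was 0.12 with median-ratio scaling, its lowest value over 14 alternatives. The BH3 core was read at chr6:120897289-120897324. Exons of Bid overlap those of its relative Bcl2l13 on the opposite strand.

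Bcl2l11 (ENSMUSG00000027381, chr2:128126038-128162547, plus strand) encodes Bim, which binds every guardian of the family and is a FoxO target. It was at 4.78 and 4.50 FPKM in controls 3 and 4, against 5.97 and 5.04 FPKM in HDAC4 KO 3 and 4. Both HDAC4 KO libraries were above both controls, although the Cufflinks bounds of control 3 (4.22 to 5.35 FPKM) and HDAC4 KO 4 (4.52 to 5.57 FPKM) overlapped. The difference was 0.20 ± 0.12 (SE) on the log2 scale, with a 95% interval of -0.12 to 0.53 and a limma adjusted p of 0.504. It was 0.10 without HDAC4 KO 3 and 0.31 without HDAC4 KO 4. Placing its decimal points needed the authors' group values. The BH3 core lies at chr2:128147141-128147176.

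Xiap (ENSMUSG00000025860, chrX:42059679-42109656, plus strand), the member that blocks caspases directly, had the widest difference. Its lowest allowed levels were 11.8 and 6.79 FPKM in controls 3 and 4, against 6.15 and 5.84 FPKM in HDAC4 KO 3 and 4. Control 3 stood alone, with Cufflinks bounds of 11.2 to 12.3 FPKM against 6.39 to 7.20 FPKM in control 4, and control 4 lay close to the HDAC4 KO libraries. The difference was -0.51 ± 0.26 (SE) on the log2 scale, with a 95% interval of -1.20 to 0.17 and a limma adjusted p of 0.439. It was -0.16 without control 3 and -0.87 without control 4, with adjusted p between 0.286 and 0.784 over 14 alternatives. Control 3 was also the library with high myofibre markers and a high level of Hbb-bs, a blood marker. Cd68 and Lyz2, also blood markers, were instead higher in both HDAC4 KO libraries. Whether any of this bears on Xiap was not tested.

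**Figure D2:**
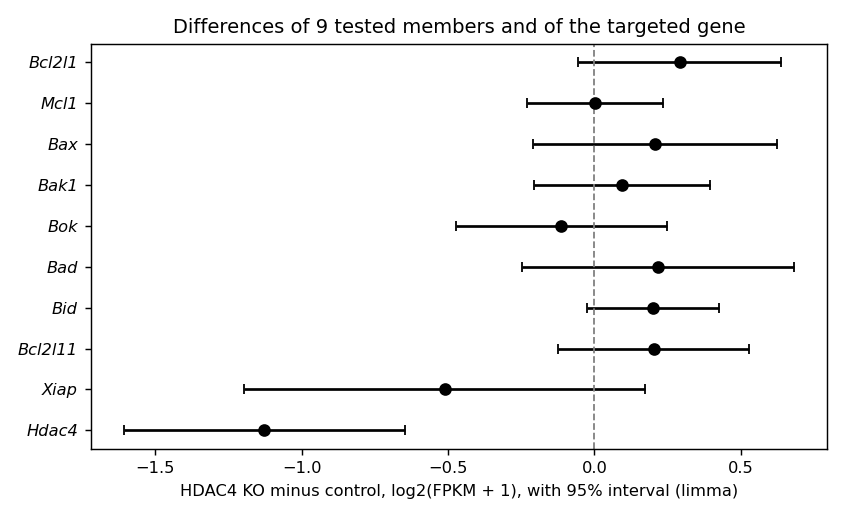
Differences of the 9 tested members and of Hdac4 on the log2(FPKM + 1) scale, HDAC4 KO minus control, with points for the limma estimate and bars for its 95% interval. The interval of every member crosses 0, while that of Hdac4 runs from -1.61 to -0.65.

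Within a group the libraries differed by up to 1.73-fold (Xiap, controls). The Cufflinks bounds of the 2 controls did not overlap for 5 of 10 members (Bcl2l1, Bax, Bok, Bad and Xiap), and those of the 2 HDAC4 KO libraries for 3 of 10 (Bcl2l1, Bax and Bad). For these members the spread between libraries of a group was larger than the error within a library. The share of all genes with bounds apart was not computed. Bounds were also narrower for some members than others, with half-widths of 1.69% to 1.86% for Bax and 10.8% to 16.9% for Bcl2. Leaving out control 3 brought the differences of Bax, Bad, Bcl2l1 and Xiap closer to 0, and by smaller steps those of Bid (0.17) and Bak1 (0.08). With 2 controls, leaving out control 4 moves each difference by the same step the other way, so it adds no separate result. Bok went the other way, to -0.26 without control 3 and 0.03 without control 4. Bcl2l11 also did, with 0.24 without control 3 and 0.17 without control 4.

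**Figure D3:**
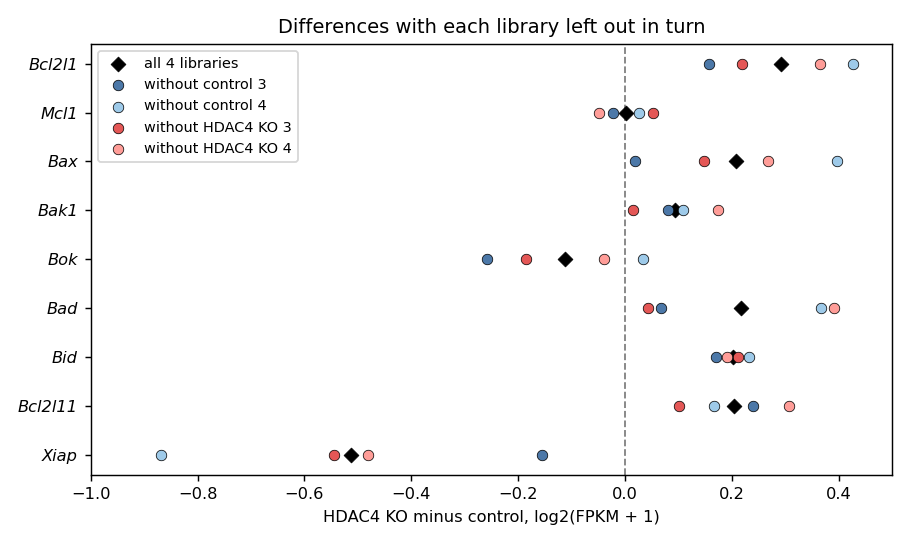
Differences of the 9 tested members on the log2(FPKM + 1) scale with all 4 libraries (diamonds) and with each library left out in turn (circles). Xiap runs from -0.87 to -0.16 and Bax from 0.02 to 0.40, depending on which control is left out, while Bid stays between 0.17 and 0.23.

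The 4 members with a settled level form 6 ratios within each library. Groups overlapped for 3 of them. Mcl1 stood at 13.2% and 10.5% of the Bax level in controls and at 9.42% and 11% in HDAC4 KO, Bcl2l11 at 1.51% and 1.09% of Bax against 1.38% and 1.26%, and Bcl2l11 at 11.5% and 10.4% of Mcl1 against 14.6% and 11.5%. The groups were apart for the 3 ratios that include Bcl2, the member with the lowest settled level. Bcl2 was itself lower in both HDAC4 KO libraries and enters all 3, so they are not separate results. Bcl2 was at 0.251% and 0.151% of Bax in controls against 0.128% and 0.113% in HDAC4 KO, and at 1.91% and 1.44% of Mcl1 against 1.35% and 1.03%. Bcl2l11 was 6.02 and 7.25 times the Bcl2 level in controls and 10.8 and 11.1 times in HDAC4 KO. These ratios were formed with the values known and have no test, and ratios of other genes were not formed for comparison.

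Other genes of the same death pathway were described from 6 lists holding 85 gene names, and 64 genes of these were tested. None passed at an adjusted p under 0.05 (limma), and the smallest adjusted p was 0.153, for Mdm2. At an unadjusted p under 0.05, 12 of the 64 were higher and 4 lower, where 10.7% of all genes tested were higher and 3.71% lower.

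**Figure D4:**
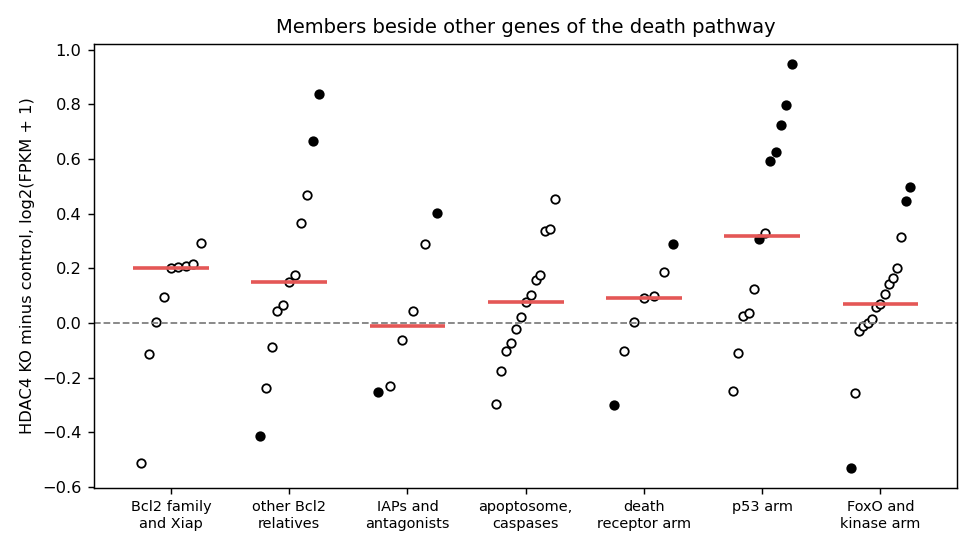
Differences on the log2(FPKM + 1) scale for the 9 tested members and for the tested genes of 6 pathway lists, with a point per gene, filled where the unadjusted limma p was under 0.05, and a line at each median. The members have no filled point, and the p53 arm has 6 filled points of 12, all above 0.

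Relatives of the members stood on both sides. Of 11 tested, 8 were above 0 and 3 below, with a median of 0.15, and 2 were higher and 1 lower at an unadjusted p under 0.05. Bbc3, which encodes the BH3-only protein PUMA, was at 6.16 and 7.15 FPKM in controls and 10.3 and 12.0 FPKM in HDAC4 KO, a difference of 0.66 ± 0.13 (SE) with a limma adjusted p of 0.221. Pmaip1, which encodes NOXA, a BH3-only partner of Mcl1, had lowest allowed levels of 3.41 and 3.48 FPKM in controls and 5.82 and 8.27 FPKM in HDAC4 KO, a difference of 0.84 ± 0.18 (SE) with an adjusted p of 0.223. Neither had overlapping groups. Bcl2l2, a guardian, had lowest allowed levels of 5.73 and 6.34 FPKM in controls against 4.92 and 3.70 FPKM in HDAC4 KO, a difference of -0.41 ± 0.15 (SE) with a limma adjusted p of 0.345. Bmf, a BH3-only gene, was at 0.0917 to 0.309 FPKM over the 4 libraries and was not tested.

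The list of inhibitors of apoptosis, to which Xiap is related, and of their antagonists held 14 gene names, of which Sept4 and Septin4 stand for the same gene. From this list 6 genes were tested, with 3 above and 3 below 0 and a median of -0.01. Birc3 and Birc2, which encode cellular IAPs that act on receptor complexes, had log2 differences of 0.40 (unadjusted p 0.0398) and 0.29 (0.106), opposite in sign to Xiap. Birc5, which encodes survivin, a protein of dividing cells, was at -0.06 (0.492). Among antagonists of Xiap that mitochondria release, Htra2 had a difference of -0.25 (0.0396) and Diablo one of 0.04 (0.693). The adjusted p of all 5 lay between 0.326 and 0.867 (limma).

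Downstream of the mitochondrion, none of 13 tested genes of the apoptosome and caspase list had an unadjusted p under 0.05, with 8 above 0 and a median of 0.08. Apaf1, the scaffold of the apoptosome, was at 8.09 and 6.81 FPKM in controls and 8.93 and 10.4 FPKM in HDAC4 KO, a log2 difference of 0.34. Dffb and Casp12, named after their values were seen, had differences of 0.45 and 0.34 (unadjusted p 0.174 and 0.0942, limma), above those of Apaf1 and of the others in that list. Cycs, which encodes cytochrome c, was at -0.18 and the initiator Casp9 at -0.02 on the same scale. In the death receptor list, 5 of 7 tested genes were above 0, with a median of 0.09. Casp8, which cuts Bid, was listed with the caspases and had a difference of 0.18. Ripk1, a kinase of receptor complexes, was at 0.29 (unadjusted p 0.0245) and Tnfrsf21, a death receptor, at -0.30 (0.0321), with adjusted p of 0.286 and 0.312 (limma).

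Upstream, the p53 arm had 10 of 12 tested genes above 0 and a median of 0.32, with 6 at an unadjusted p under 0.05, all higher. This list holds Cdkn1a, which the study selected from these libraries, so its direction here is not independent evidence. The study also reported higher expression of P21, the product of Cdkn1a, in HDAC4 KO cells by real-time PCR on other samples. Mdm2, the ligase that degrades p53 and itself a p53 target, was at 67.5 and 69.0 FPKM in controls and 120 and 146 FPKM in HDAC4 KO, a difference of 0.95 ± 0.12 (SE) with an unadjusted p of 0.00105 and an adjusted p of 0.153 (limma). Trp53 itself was at 280 and 317 FPKM against 308 and 303 FPKM, a difference of 0.04, and Mdm4 was at -0.25 (adjusted p 0.394, limma). Of the FoxO and kinase list, 10 of 15 tested genes were above 0, with a median of 0.07. Bag1, a partner of Bcl2, had a difference of 0.50 (unadjusted p 0.0112) and Pim3, a kinase that phosphorylates Bad, one of -0.53 (0.0154), with adjusted p of 0.248 and 0.26 (limma).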

How the data were processed

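Satellite cell RNA was sequenced in 4 libraries, 2 per group. Per the submitters' processing notes, CASAVA 1.8.2, cutadapt, TopHat, Cufflinks and Cuffdiff were used with GRCm38. The authors deposited Cufflinks FPKM with confidence bounds for each gene and library, and a Cuffdiff table with a pooled FPKM per group, whose columns of fold change, test statistic, p-value and q-value were not used. The paper gives the average and range of reads per sample, but not the depth of each library.

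Lost decimal points were restored where the estimate lay midway between its bounds (tolerance 4e-05 of the upper bound), where precision was alike in all libraries (spread up to 0.8 on the log10 scale, with other placements wider by at least 0.3) and where group means lay within 0.15 on the log10 scale of the authors' pooled values. Of 43437 genes, 17712 were at 0 in every library, 40 were listed at several places, 18 had failed estimates, 23 had no estimate midway, 16 no like precision, 35 missed the pooled values, 71 had no settled ratio and 25522 were kept. Of the 12118 tested, the level was fixed for 3980, single for 2468 and the lowest allowed for 5670. With known levels hidden, the printed level was not above the true one for 3838 of 3847 genes (99.77%) and was the right one for 3054. It was right for 1859 of 1865 genes in the lowest decade of level, 904 of 1260 in the next and 291 of 722 in the highest.

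Genes whose mean reached 1 FPKM were tested with limma 3.58.1 (R 4.3.3), with a mean-dependent prior, on log2(FPKM + 1), with Benjamini-Hochberg adjustment over all genes tested and a threshold of 0.05. The script was tested on simulated data. The smallest p of a two-sided exact permutation of 4 libraries is 0.333, and no such test was run. Replicate numbers were not taken as pairs. Named genes were the 10 members, Hdac4, genes chosen by role, and the smallest p in each direction of each list, and 1 of the genes chosen by role is not reported here. The members and lists were chosen with earlier results of these data known. Annotation and sequences came from GENCODE M21. The alternatives were other scalings, pseudocounts and filters, protein-coding genes alone, a prior that does not depend on the mean, replicate blocks, points placed without pooled values, and each library left out.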

Additional observations from a re-analysis of the deposited data

How the results depend on the processing

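No member passed an adjusted p under 0.05 (limma) in the test above or in any of 14 alternatives (134 tests of members in all, smallest adjusted p 0.286), and 5 of the 134 had an unadjusted p under 0.05: Bid with no filter, Bcl2l1 with crossed blocks, and Bax, Bcl2l1 and Xiap without control 4. Signs turned for Mcl1 (-0.081 with median-ratio scaling, -0.040 with quantile normalization, -0.022 without control 3 and -0.049 without HDAC4 KO 4) and for Bok (0.033 without control 4). Differences with 1 library left out ranged from 0.16 to 0.43 for Bcl2l1, -0.049 to 0.053 for Mcl1, 0.018 to 0.40 for Bax, 0.014 to 0.17 for Bak1, -0.26 to 0.033 for Bok, 0.043 to 0.39 for Bad, 0.17 to 0.23 for Bid, 0.10 to 0.31 for Bcl2l11, -0.87 to -0.16 for Xiap and -1.32 to -0.94 for Hdac4, and the log2 ratio of mean Bcl2 ran from -0.66 to -0.30. A pseudocount of 0.1 gives the difference a gene would have at a level 10 times higher, and it turned no sign among members. Hdac4 passed among protein-coding genes alone (-1.13, adjusted p 0.0434, limma), and its adjusted p over all alternatives reached 0.734.

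The count of all genes called was 0 in the test above (1746 at an unadjusted p under 0.05, limma), 9 with median-ratio scaling, 5 with a pseudocount of 0.1, 3 with a mean of at least 5 FPKM, 78 among protein-coding genes alone, 14 with a prior that does not depend on the mean, 9 with points placed without pooled values, and 0 to 82 with 1 library left out (73 without control 3, 82 without control 4). The replicate block gave 0 calls (1283 at an unadjusted p under 0.05), as did the crossed block (1818), chosen after seeing the data because same-numbered libraries deviated in opposite directions (r = -0.115 across 12118 genes, which are not independent). The block changed no call among the members or Hdac4.

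List medians moved by more than the spread between libraries as follows. With median-ratio scaling they were 0.077 for the Bcl2 relatives, -0.094 for the inhibitors of apoptosis with their antagonists, -0.0050 for the apoptosome and caspases and -0.016 for the FoxO and kinase list. Quantile normalization gave 0.041 for the caspases and -0.0037 for the FoxO list. No filter gave 0.067 for the relatives and 0.048 for the caspases, a mean of at least 5 FPKM 0.096 and 0.049, and points without pooled values 0.049 for the caspases. With 1 library left out the medians ran from 0.095 to 0.24 for the relatives, -0.066 to 0.045 for the inhibitors with their antagonists, 0.086 to 0.10 for the caspases, -0.061 to 0.16 for the death receptor arm, 0.24 to 0.42 for the p53 arm and 0.010 to 0.11 for the FoxO list. Of these, the inhibitor list never moved by more than the spread between libraries. The other lists did so for some of the libraries left out. With 1 library left out, the lone library of its group is assumed to vary like the others. The causes were not tested.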
